A study of Drosophila melanogaster with 42 samples.

Results

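The genes examined here are tut (tumorous testis, CG32364), bam (bag of marbles, CG10422) and bgcn (benign gonial cell neoplasm, CG30170), whose proteins are partners in germline differentiation. The members were the probesets whose annotation names 1 of these genes alone. Each gene had 1 such probeset and none shared with another gene, so the set is 3 of the 11982 genes that a probeset of the array names alone. RNA from whole female Drosophila melanogaster was hybridized to 42 Affymetrix arrays in 14 groups of 3 biological replicates, with at least 75 females in each RNA extract. The study asked which transcripts respond to dietary restriction (DR), to neuronal dSir2 and to a dominant-negative Dmp53 (DN-Dmp53), interventions that lengthen fly life. Each condition was sampled at an age of 10 days and at 40 days.

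All yw/w1118 flies carried the Elav-GeneSwitch driver, which acts in neurons when the food holds RU486. The dSir2 control and the dSir2 overexpression flies shared the driver and the dSir2 EP construct on high calorie food, with diluent (EtOH) in the first and RU486 in the second. The yw/w1118 DR flies were the same dSir2 construct flies on low calorie food with diluent, so that at each age 1 set of 3 dSir2 control arrays served both the DR and the dSir2 comparison. The DN-Dmp53 flies, labelled p53 knockdown, carried the driver with the DN-Dmp53 transgene and received RU486, and their controls received diluent. The paper does not call the food of the DN-Dmp53 set high calorie. Its methods refer the genetic interventions to the life span experiments, which used regular cornmeal food. Canton-S flies, a wild-type background without these transgenes in the labels, were kept on high or low calorie food. The driver is neuronal, and the germline is not its target tissue. No group received RU486 without a construct to induce, so effects of RU486 and of the induced construct cannot be told apart.

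In the ovary a somatic niche secretes the BMP ligand Dpp, which keeps bam silent in the germline stem cells, and a daughter that leaves the niche turns bam on and becomes a cystoblast. Bam works with Bgcn, a protein related to DExH-box helicases, and the pair lowers the translation of stem cell factors such as nanos. Tut is an RNA-binding partner of Bam and Bgcn that is known from the male germline, where the 3 proteins limit the divisions of spermatogonia and repress mei-P26. In a whole female the RNA of early germline cells comes from a small part of the body. The tissue that gives the tut signal in females was not measured here. In such bulk RNA fewer cells of a kind and less RNA per cell cannot be told apart.

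Levels are log2 expression values on a scale that ends at a floor of 2.11, below which no signal is resolved, and the maximum over all probesets was 16.22. Array medians lay between 2.77 and 3.16, 36.9 to 41.0% of probesets of an array were at the floor, and arrays of 1 group correlated at 0.995 to 0.999. The label of whole female was borne out by yolk and eggshell transcripts, with Yp1 at 15.78 to 15.94 and Cp36 at 14.03 to 15.53. Of 29 measured genes of a male germline and accessory gland list, 7 were within 0.05 of the floor on every array. The summed linear level of that list was 173 to 305 on 37 arrays and 598 to 1071 on 5 arrays, all of day 40. These were Canton-S control replicates 2 and 3, Canton-S DR replicate 3 and DN-Dmp53 replicates 1 and 3. Among the other arrays Acp53Ea, an accessory gland gene, was above the floor on 3. It was at 5.20 on Canton-S DR replicate 3 of day 10, and at 5.90 and 3.36 on dSir2 overexpression replicates 2 and 3 of day 40. With Acp53Ea at the floor, the summed level was 207 and 228 on DN-Dmp53 control replicates 2 and 3 of day 40. It was 211 on Canton-S DR replicate 1 of day 10, also with Acp53Ea at the floor. On the 5 arrays Acp53Ea reached 8.16 and the testis tubulin betaTub85D 4.61. Where values without the arrays with male transcripts are given, these 5 were left out.

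The members occupied very different parts of the scale. The bam probeset was well measured everywhere, at 7.51 to 10.64 with a median of 8.98. The tut probeset lay lower, at 2.65 to 7.07 with a median of 4.01, and was above the floor on every array. The bgcn probeset gave no usable signal, since 35 of 42 arrays were exactly at the floor, and all 42 were within 0.05 of it with a highest value of 2.14. Probesets differ in how well they hybridize, so these levels do not rank the 3 transcripts against each other.

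**Figure D1:**
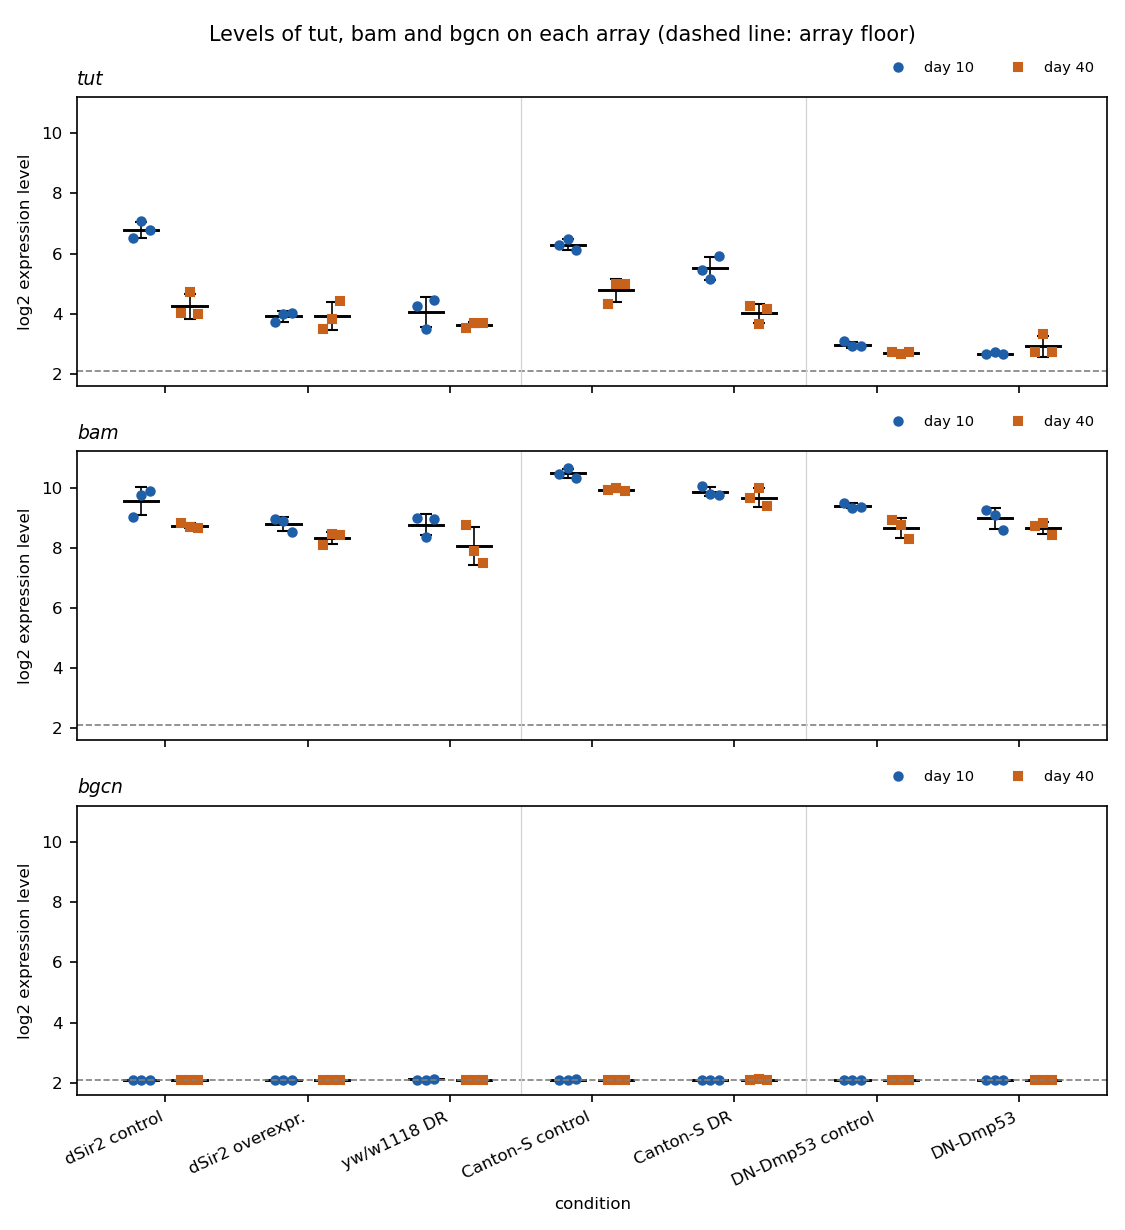
Log2 expression level of tut, bam and bgcn (y axis, 1 panel a gene) on each of the 42 arrays, by condition (x axis), with day 10 as circles and day 40 as squares. Horizontal bars are group means, error bars are SD (n = 3) and the dashed line is the floor of 2.11, on which bgcn lies while tut runs from 2.65 to 7.07 and bam from 7.51 to 10.64.

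The gene tut was chosen by its measured values on the day 10 arrays of the yw/w1118 DR and dSir2 comparisons, so those values are a description without a test. In the dSir2 control tut was at 6.52, 7.07 and 6.80. In the dSir2 overexpressing flies it was at 3.72, 4.01 and 4.04, and in the yw/w1118 DR flies at 4.26, 3.48 and 4.45. Both intervention groups lay far below the shared control arrays and overlapped with each other. The differences of means were -2.87 for dSir2 and -2.73 for DR on the log2 scale, which correspond to 7.33-fold and 6.65-fold lower linear levels, and both rest on the same 3 control arrays. In these comparisons 10.5% (dSir2) and 29.7% (DR) of the probesets tested were called in either direction. A call throughout means a limma adjusted p below 0.05 together with a change of more than 1.5-fold.

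Across the 14 groups the mean level of tut fell into an order with 3 steps without overlap at its upper end. The dSir2 control at day 10 (6.79 ± 0.27, SD, n = 3) was highest, followed by the Canton-S control at day 10 (6.29 ± 0.18) and Canton-S DR at day 10 (5.52 ± 0.38), and no array of 1 of these groups overlapped with the next. Probesets apart in the same direction made up 26.7% between the dSir2 and Canton-S controls and 33.2% between Canton-S control and DR. For the step below Canton-S DR this share was not computed. The following 6 groups, from the Canton-S control at day 40 (4.78 ± 0.38) to dSir2 overexpression at day 10 (3.92 ± 0.18), each overlapped with their neighbour in the order. The yw/w1118 DR flies at day 40 had the next lower mean, 3.64 ± 0.09, and overlapped with 3 of these 6 groups but not with dSir2 overexpression at day 10, the group before it. All 4 groups of the DN-Dmp53 set came last, between 2.68 and 2.98, and overlapped with their neighbours. The range of group means, 4.12, was larger than that of 98.5% of the 18769 probesets, whose median range was 0.48, a property for which tut was in part chosen.

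The order of bam was different. It was led by Canton-S, with the control at day 10 at 10.48 ± 0.15 clear of the next group, and the control at day 40 (9.93 ± 0.07), DR at day 10 (9.86 ± 0.15) and DR at day 40 (9.67 ± 0.30) overlapping in turn. Between the Canton-S controls of day 10 and day 40, 24.7% of probesets were apart in the same direction. The dSir2 control at day 10 (9.55 ± 0.46) and the DN-Dmp53 control at day 10 (9.40 ± 0.09) followed. Every other group was below 9, down to the yw/w1118 DR flies at day 40 (8.06 ± 0.64), and these 8 groups lay below the DN-Dmp53 control of day 10 and overlapped in turn. The highest of them, DN-Dmp53 at day 10, had 10.5% of probesets apart from that control in the same direction. The range of group means was 2.42, above that of 92.6% of probesets. Over the 14 group means tut and bam correlated at r = 0.64, a description of groups that share controls and backgrounds.

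Both detected members fell under DR in Canton-S flies at day 10, a comparison that shares no array with the yw/w1118 set. For tut the control arrays were at 6.28, 6.47 and 6.12 and the DR arrays at 5.47, 5.17 and 5.93. The groups did not overlap, and tut fell by 0.77 (SE 0.228, limma adjusted p = 0.0448). For bam the control arrays were at 10.46, 10.64 and 10.33 and the DR arrays at 10.04, 9.79 and 9.75. Again no DR array reached the control arrays, and bam fell by 0.61 (SE 0.117, limma adjusted p = 0.0113). These 2 calls stand in a comparison in which 31.6% of 12804 probesets were called, 15.5% lower and 16.0% higher, and 33.2% had all DR arrays below all control arrays. The call of tut was lost without DR replicate 1 or 2 or any 1 control array (limma adjusted p = 0.0755 to 0.131), and bam came under the fold threshold without DR replicate 2 or 3 or control replicate 2, with differences of -0.58, -0.56 and -0.53. Without DR replicate 3, which carried male transcripts at a lower level, tut was at -0.97 (adjusted p = 0.0132). Among other settings tut was not called with no filter on low values (adjusted p = 0.0794), with the replicate block or by the methods' t-test, and bam not with array weights (-0.55) or quantile normalization again (-0.50).

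In the yw/w1118 background at day 10 bam was at 9.03, 9.75 and 9.88 in the dSir2 control and at 8.99, 8.36 and 8.97 under DR. The groups came close without overlapping, as did those of 34.6% of probesets in the same direction. The difference of -0.78 (SE 0.310, limma adjusted p = 0.0966) did not pass the test. Control replicate 1 was the lowest of its group, and without it the difference was -1.04 with a limma adjusted p of 0.0334. The DR difference in Canton-S minus that in yw/w1118 was 0.17 for bam (95% interval -0.62 to 0.95, limma adjusted p = 0.879), in a test that called 3.11% of probesets. For tut the DR differences of -0.77 and -2.73 stand side by side as values, since the yw/w1118 arrays chose the gene.

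At day 40 tut was still below its control in both backgrounds, without a call. In Canton-S the control arrays were at 4.34, 4.98 and 5.00 and the DR arrays at 4.26, 3.65 and 4.15. The arrays did not overlap, as was so for 27.0% of probesets in this direction, and the difference was -0.75 (SE 0.265, limma adjusted p = 0.0896), in a comparison with 23.7% of probesets called. The call was made without control replicate 1 (adjusted p = 0.0469). Control replicates 2 and 3, which held the higher tut values, and DR replicate 3 were the arrays with male transcripts (650, 1071 and 621 in summed level). Without them the difference was -0.39 (adjusted p = 0.688) over 1 control and 2 DR arrays, the lone control array being assumed to vary like the others.

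In yw/w1118 at day 40 tut was at 4.02, 4.73 and 4.01 in the control and at 3.53, 3.70 and 3.68 under DR, again without overlap (14.6% of probesets in this direction). The difference was -0.62 (SE 0.230, limma adjusted p = 0.245), in a comparison that called 0.0548% of probesets, and -0.38 without control replicate 2. For bam the day 40 differences under DR were -0.67 (SE 0.349, limma adjusted p = 0.367) in yw/w1118 and -0.27 (SE 0.164, limma adjusted p = 0.282) in Canton-S, and in both the arrays overlapped. Leaving out 1 array moved them between -1.02 and -0.39 in yw/w1118 (without DR replicate 1 or 3) and between -0.42 and -0.12 in Canton-S (without DR replicate 2 or 3), and the Canton-S value was -0.11 without the arrays with male transcripts. The differences between backgrounds at day 40 were -0.14 for tut (95% interval -0.97 to 0.69) and 0.40 for bam (95% interval -0.51 to 1.31), and neither was called, with 3.88% of probesets called.

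In the dSir2 overexpressing flies at day 10 bam was at 8.96, 8.89 and 8.52, all below the lowest control array at 9.03. The same was so for 22.6% of probesets, and the difference of -0.76 (SE 0.277, limma adjusted p = 0.125) was not called. It became a call at -1.02 without dSir2 control replicate 1 (adjusted p = 0.0373), the same array as in the DR comparison. At day 40 the dSir2 flies were at 8.09, 8.45 and 8.44 for bam against 8.82, 8.70 and 8.67, with a difference of -0.41 (SE 0.119, limma adjusted p = 0.428), and 7.28% of probesets were separated in that direction. For tut at day 40 the dSir2 arrays at 3.50, 3.84 and 4.43 overlapped with the control (difference -0.33, SE 0.339, adjusted p = 0.793). That value was -0.09 without control replicate 2, -0.12 without dSir2 replicate 1 and -0.58 without dSir2 replicate 3. Here limma called 0 of 12742 probesets, while 1269 had an unadjusted p under 0.05 and the methods' t-test called 21.

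The DN-Dmp53 flies held tut near the bottom of the scale. At day 10 it was at 3.09, 2.94 and 2.92 in the control and at 2.65, 2.73 and 2.66 with DN-Dmp53. No arrays overlapped, which 10.5% of probesets shared in this direction, and the difference of -0.30 (SE 0.0565, limma adjusted p = 0.0760) was below the fold threshold, in a comparison that called 2.01% of probesets. For bam the same comparison gave 9.50, 9.33 and 9.36 against 9.27, 9.09 and 8.59, also without overlap, with a difference of -0.41 (SE 0.194, adjusted p = 0.395) that was -0.21 without DN-Dmp53 replicate 3.

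At day 40 tut was at 2.72, 2.65 and 2.73 in the DN-Dmp53 control and at 2.73, 3.32 and 2.72 with DN-Dmp53. A single array, replicate 2, stood above all others of the set, and without it the difference changed from 0.22 (limma adjusted p = 0.698) to 0.02. Replicate 2 was the DN-Dmp53 array of day 40 without raised male transcripts (182 against 598 and 643), so leaving those arrays out left the high value alone, with a difference of 0.62 (adjusted p = 0.188). With only that array the DN-Dmp53 difference at day 40 minus that at day 10 was 0.92 (adjusted p = 0.00442), against 0.52 (adjusted p = 0.260) over all arrays and 0.33 (adjusted p = 0.0864) without replicate 2, in a test that called 1.61% of probesets. For bam the difference at day 40 was 0.01 (SE 0.208), and limma called 0.00786% of probesets there.

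**Figure D2:**
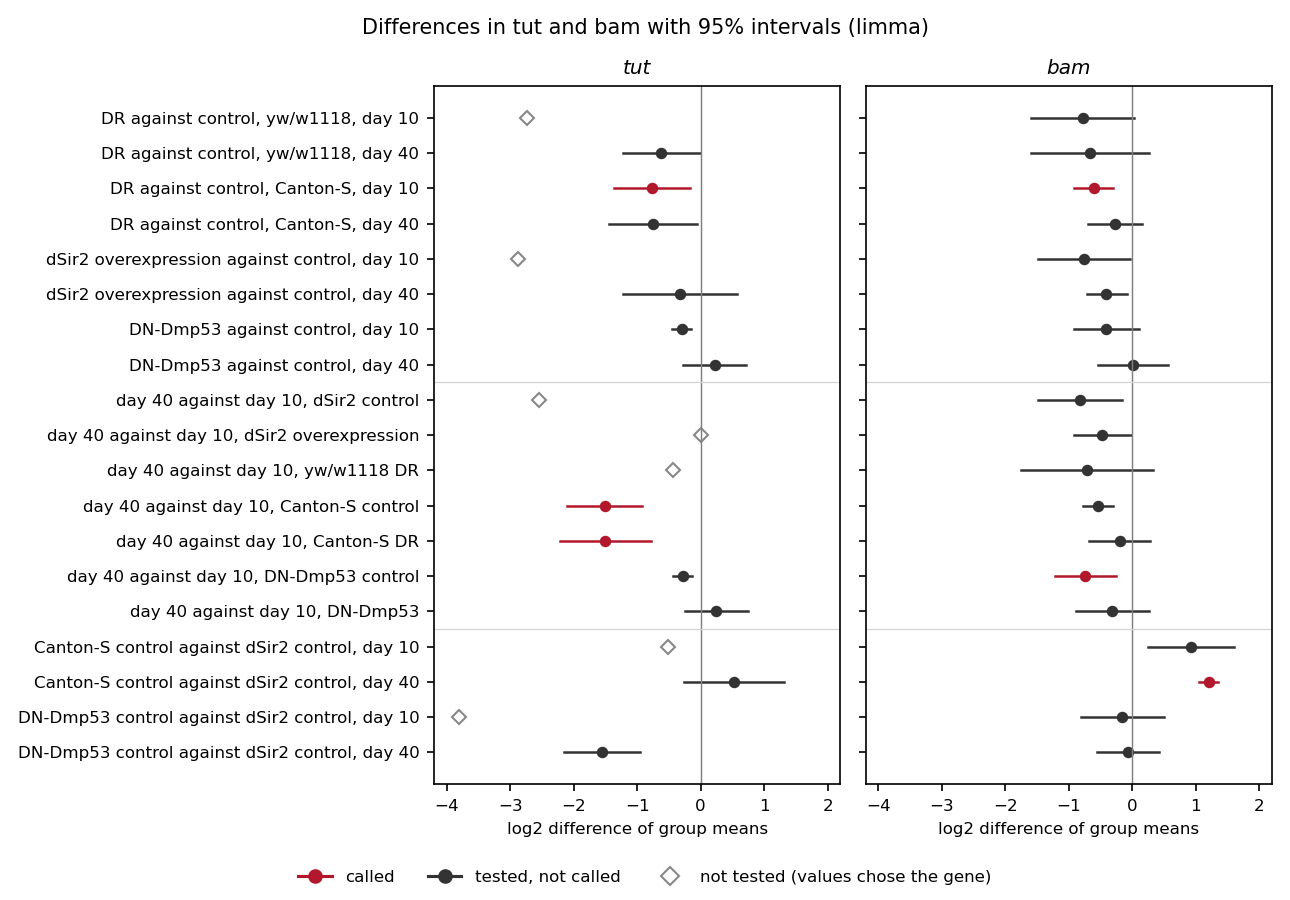
Difference of group means on the log2 scale (x axis) for tut and bam in the 19 comparisons of groups (y axis), with the limma 95% interval as a line. Red marks a call, black a tested difference that was not called, and open diamonds tut values that were not tested; most points lie left of 0, with bam higher in Canton-S than in the dSir2 controls as the exception called at day 40 (1.20).

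With age tut fell in Canton-S flies on both diets. In the controls it went from 6.28, 6.47 and 6.12 at day 10 to 4.34, 4.98 and 5.00 at day 40, so every old array was below every young one. The difference was -1.51 (SE 0.222, limma adjusted p = 0.0186), a 2.86-fold lower linear level, in a comparison that called 9.23% of probesets (2.72% lower) and separated 24.7% downward. Under DR it went from 5.47, 5.17 and 5.93 to 4.26, 3.65 and 4.15, a difference of -1.50 (SE 0.271, limma adjusted p = 0.0342) without overlap, where 9.66% were called (4.57% lower and 5.10% higher) and 21.5% separated downward. Without the arrays with male transcripts the DR difference was -1.57 (adjusted p = 0.0765). The control difference was then -1.95 and rested on 1 array of day 40, at 4.34, whose spread could not be measured. The control call was lost without day 10 replicate 1 or 2 (adjusted p = 0.0640 and 0.0702), and the DR call without any 1 of its 6 arrays (adjusted p = 0.0576 to 0.111). The DR difference of tut at day 40 minus that at day 10 in Canton-S was 0.01 (95% interval -0.81 to 0.84), in a test that called 7.58% of probesets.

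In the yw/w1118 flies the age difference of tut is a description, because the day 10 arrays chose the gene. It was -2.54 in the dSir2 control, where the ages did not overlap, -0.43 under DR and 0.00 with dSir2 overexpression, the last 2 with overlapping arrays. The mean of tut was 4.06 at day 10 and 3.64 at day 40 under DR, and 3.92 at both ages with dSir2. In the DN-Dmp53 control tut went from 2.98 to 2.70 (difference -0.28, SE 0.0569, limma adjusted p = 0.0242), under the fold threshold, and with DN-Dmp53 from 2.68 to 2.92 (adjusted p = 0.447), where 10.0% of probesets were called. Without the DN-Dmp53 arrays with male transcripts the latter difference was 0.64 (adjusted p = 0.0463), resting on replicate 2 alone, and without replicate 2 it was 0.04 (adjusted p = 0.399).

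The mean of bam was lower at day 40 than at day 10 in all 7 conditions, which was so for 15.3% of the 11013 probesets tested in all of them. These 7 comparisons share no array with each other, but they use the same arrays as the intervention comparisons. The DN-Dmp53 control gave the only call: bam was at 9.50, 9.33 and 9.36 at day 10 and at 8.92, 8.77 and 8.29 at day 40. The groups were apart, and bam fell by 0.74 (SE 0.184, limma adjusted p = 0.0423), with 19.4% of probesets called (9.28% lower) and 26.6% separated downward. The call was lost without any 1 day 10 array or day 40 replicate 2 (adjusted p = 0.0892 to 0.130), and without day 40 replicate 3 the difference was -0.55. In the dSir2 control the difference was -0.82 (SE 0.250, adjusted p = 0.0534), from 9.03, 9.75 and 9.88 to 8.82, 8.70 and 8.67, where 28.2% of probesets were called and 31.6% separated downward. It was called without day 10 replicate 1 (-1.09, adjusted p = 0.00372). In the Canton-S control it was -0.54 (SE 0.0900, adjusted p = 0.0231), significant but under the fold threshold, which it passed without day 10 replicate 3 (-0.62, adjusted p = 0.0328).

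In the 4 other conditions the age differences of bam were -0.47 with dSir2 overexpression (limma adjusted p = 0.116, arrays apart as for 24.4% of probesets), -0.71 under DR in yw/w1118 (adjusted p = 0.281), -0.20 under DR in Canton-S (adjusted p = 0.534) and -0.32 with DN-Dmp53 (adjusted p = 0.385). None passed the test, in comparisons that called 14.9%, 7.99%, 9.66% and 10.0% of probesets in this order. Over the alternatives the last 3 ran from -1.06 to -0.44, from -0.35 to -0.05 and from -0.52 to -0.16. The yw/w1118 DR arrays at day 40, at 8.76, 7.91 and 7.51, were the most scattered of any bam group, with an SD of 0.64. The 6 tests of a difference between changes gave 0 calls in the 9 limma tests of tut and bam, with 1 at an unadjusted p under 0.05 (tut, DN-Dmp53 by age). A further 5 tests were of bgcn, whose values within 0.05 of the floor could not give a call. For bam the change of the DR difference with age was 0.11 in yw/w1118 (4.36% of probesets called) and 0.35 in Canton-S, and the change of the dSir2 difference was 0.36 (3.51% called).

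The control groups themselves differed. In Canton-S controls bam was higher than in dSir2 controls at day 40, at 9.92, 10.00 and 9.87 against 8.82, 8.70 and 8.67. The gap of 1.20 (SE 0.0576, limma adjusted p = 0.00210) was a 2.30-fold difference, where 10.7% of probesets were called (4.82% higher) and 21.1% separated upward. It was called without any 1 array, and over the 1 Canton-S array without male transcripts it was again 1.20 (adjusted p = 0.0526). At day 10 the gap was 0.92 (SE 0.257, adjusted p = 0.0660), with 8.57% of probesets called and 15.1% separated upward, and it was called without dSir2 control replicate 1 (0.66, adjusted p = 0.0326).

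The tut level set the DN-Dmp53 flies apart from the other yw/w1118 flies. At day 10 the DN-Dmp53 control differed from the dSir2 control by -3.81 and the Canton-S control by -0.51, both without overlap and given as descriptions. Probesets apart in the same direction made up 17.5% and 26.7%, and 5.91% were called in the first. At day 40 the arrays at 2.72, 2.65 and 2.73 were below 4.02, 4.73 and 4.01, a difference of -1.55 (SE 0.225, limma adjusted p = 0.0689). That difference was not called, in a comparison that called 0.717% of probesets and separated 9.04% downward, and it was called without dSir2 control replicate 2 (-1.31, adjusted p = 0.0244). Between Canton-S and dSir2 controls tut differed by 0.52 at day 40 (adjusted p = 0.299) with overlapping arrays. For bam the DN-Dmp53 and dSir2 controls differed by -0.16 at day 10 (95% interval -0.81 to 0.50) and by -0.07 at day 40 (95% interval -0.56 to 0.42). Construct, background, any difference in food and any batch of the sets cannot be told apart in these comparisons.

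For bgcn nothing could be measured. It passed the filter on low values in 5 of the 8 intervention, 4 of the 7 ageing, 1 of the 4 control and 5 of the 6 interaction tests, each time through values within 0.05 of the floor. None of these was called by limma or had an unadjusted p under 0.05, and the differences were between -0.02 and 0.01. Whether the probeset fails or the transcript was below the floor cannot be told apart, and a fall from the floor could not have been seen in either case.

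Genes that regulate the step from stem cell to cystoblast were read from a list of germline stem cell and cystoblast regulators, of which 19 besides the members were measured. Under DR in Canton-S at day 10, 6 fell and 1 rose with a median of -0.45, and in yw/w1118 4 fell and 2 rose with a median of -0.32, each beside a median of 0.00 over all probesets. Probesets with a mean over 6, where the genes of this list lie, had medians of -0.15 in Canton-S and -0.16 in yw/w1118. Of all probesets, 15.5% were called lower and 16.0% higher in Canton-S, and 13.1% and 16.6% in yw/w1118. With dSir2 at day 10, 3 fell and 1 rose (median -0.39), where 4.90% of all probesets were called lower and 5.58% higher. Among them nanos, a translational repressor that maintains stem cells, fell by 1.09 in Canton-S DR (limma adjusted p = 7.4e-04), by 0.69 in yw/w1118 DR and by 0.71 with dSir2. The nuclear protein gene stwl, also needed for stem cell maintenance, fell by 1.15, 0.65 and 0.81 in the same order.

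The TRIM-NHL gene mei-P26, which restrains growth in the germline, fell by 1.01 with DR in Canton-S (SE 0.141, limma adjusted p = 0.00428). Its differences in yw/w1118 DR (-0.32) and with dSir2 (-0.74) were not called. With age mei-P26 was called lower in the dSir2 control (-1.09), in yw/w1118 DR (-1.03) and in the Canton-S control (-1.09). Its other age differences were not called, at -1.11 in Canton-S DR, -0.75 in the DN-Dmp53 control, -0.46 with DN-Dmp53 and -0.18 with dSir2. Rbfox1, an RNA-binding protein gene that acts in cyst differentiation and also in muscle and neurons, rose in all 3 day 10 comparisons, by 1.34 in Canton-S DR, 1.27 in yw/w1118 DR and 0.65 with dSir2.

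The niche list holds the signals that act upstream of bam. Of 19 measured, 6 rose and 1 fell in yw/w1118 DR at day 10, 5 rose and 2 fell in Canton-S DR, and 1 rose and 2 fell with dSir2, with medians of 0.00, 0.02 and -0.02. Over all probesets 16.6% were called higher and 13.1% lower in the first, 16.0% and 15.5% in the second, and 5.58% and 4.90% with dSir2. The BMP ligand gene dpp rose by 1.79 in yw/w1118 DR and by 1.40 in Canton-S DR, and had a value of -0.02 with dSir2. The other ligand gene gbb rose by 1.14 in Canton-S DR and by 0.63 with dSir2, and was also called higher in yw/w1118 DR. Dad, an inhibitory Smad gene that BMP signalling induces, rose by 1.53 in yw/w1118 DR and 1.68 in Canton-S DR, with an uncalled 0.57 for dSir2. The niche transcription factor gene bab2 rose by 1.19 and 1.08 under DR. All these genes are also used in somatic tissues, and whole-body RNA does not locate them.

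A list of later germline genes, expressed in the growing cysts and eggs, was read beside bam. Of 17 measured, 7 fell in yw/w1118 DR, 8 in Canton-S DR and 3 with dSir2 at day 10, and none rose, beside 13.1%, 15.5% and 4.90% of all probesets called lower and 16.6%, 16.0% and 5.58% called higher. The medians were -0.50, -0.46 and -0.17. The anterior determinant bcd fell in all 3, with differences of -0.73, -1.15 and -0.85, as did Orc2 of the origin recognition complex, with -1.19, -1.43 and -0.62. The RNA helicase gene vas fell by 1.22 in yw/w1118 DR from a probeset close to the floor (2.59 to 4.60 over all arrays), and stau, which localizes maternal RNAs, fell by 1.22 in Canton-S DR with an uncalled 0.12 in yw/w1118. Probesets of medium and high level, with a mean over 6, had medians of -0.16 and -0.15 in the DR comparisons and -0.07 with dSir2.

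With age the later germline list had medians from -0.72 in the dSir2 control, where 10 of 17 fell beside 15.1% of all probesets, 13.1% being called higher, to -0.22 in Canton-S DR, where 1 fell and 1 rose. The stem cell and cystoblast list had medians between -0.69 and -0.28 over the 7 conditions, and the bam differences ran from -0.82 to -0.20. Probesets with a mean over 6 had medians from -0.15 in the dSir2 control to -0.01 in Canton-S DR. At day 40 under DR in Canton-S the stem cell list was at -0.70 with 12 of 19 called lower and 1 higher (11.6% and 12.1% of all probesets), while bam was at -0.27. With dSir2 at day 40 and with DN-Dmp53 at day 10, where bam was at an uncalled -0.41 in both, the later germline medians were 0.06 and -0.01. Over the alternatives these bam differences ran from -0.49 to -0.29 and from -0.55 to -0.21. The part of germline content in the bam differences was not tested.

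**Figure D3:**
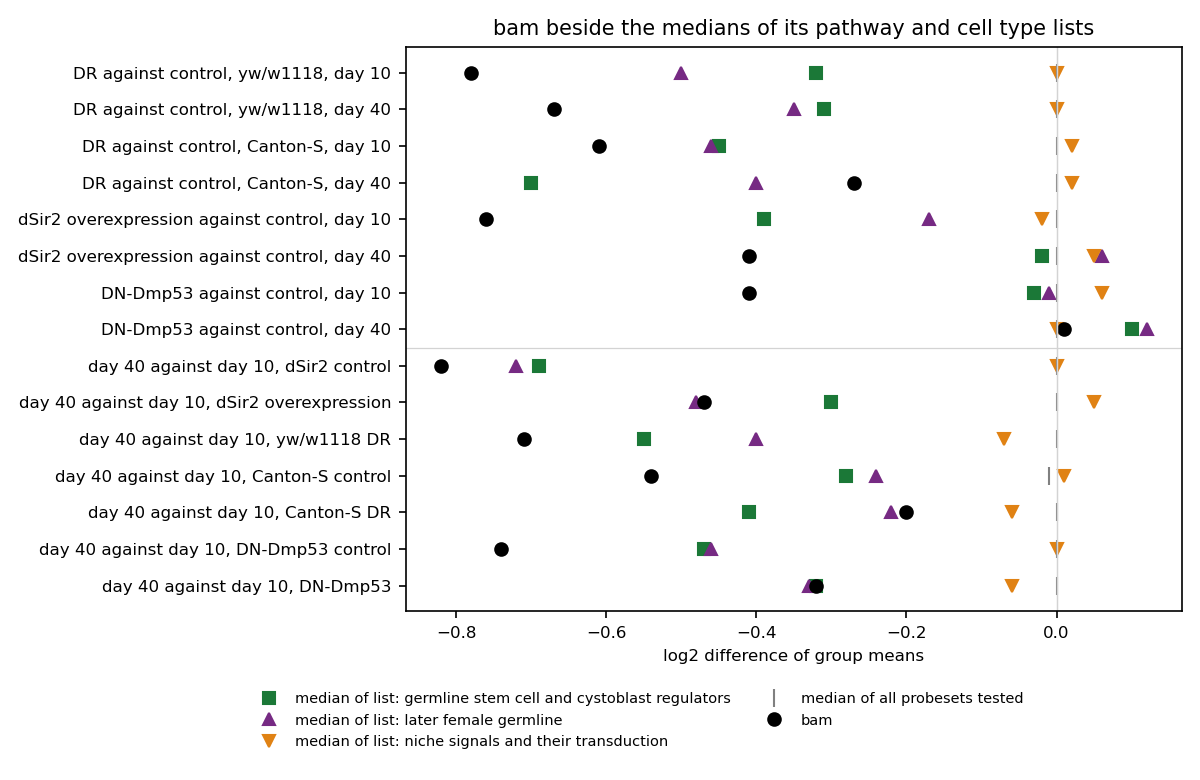
Log2 difference of bam (black circles, x axis) in the 8 intervention and 7 ageing comparisons (y axis) beside the median difference of 3 gene lists and of all probesets tested. The medians of both germline lists lie below 0 with DR and with age, and those of the niche signals stay between -0.07 and 0.06. Probesets with a mean over 6, which are not drawn, had medians from -0.16 to 0.03.

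**Figure D4:**
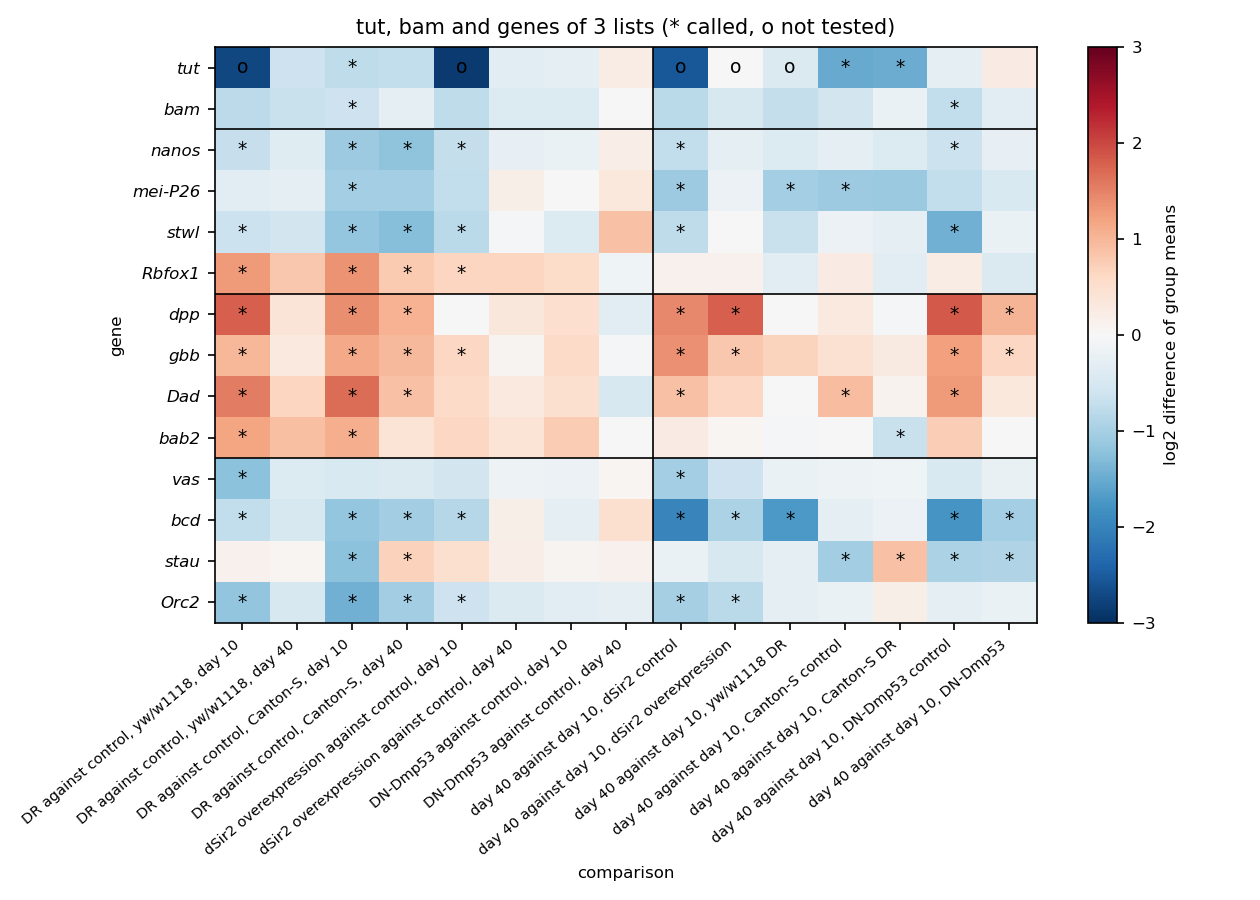
Log2 differences (colour) of tut, bam and 12 genes of 3 lists (y axis) in the intervention and ageing comparisons (x axis), with * for a call and o for tut values that were not tested. Under DR at day 10 dpp, gbb, Dad and bab2 are called higher in both backgrounds and nanos, stwl, bcd and Orc2 called lower.

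Other tissues moved in the same comparisons. In the whole-fly list the flight muscle actin Act88F rose by 2.07 in yw/w1118 DR, 3.14 in Canton-S DR and 0.97 with dSir2 at day 10, and the photoreceptor channel gene trp by 1.24, 1.71 and 0.85. Of its ovary genes the yolk receptor yl fell by 0.87 in Canton-S DR, and the vitelline membrane gene Vm26Aa rose by 0.88 with dSir2. Of the 29 measured genes of the male list, 9, 23 and 8 were tested in these 3 comparisons, in the same order, and 1 was called. This was mia, a testis transcription factor subunit gene, which rose by 1.09 in Canton-S DR, where 16.0% of all probesets were called higher. Its probeset was at 4.82 to 6.16 over all arrays, those without raised male transcripts included. The part of these shifts in the values of tut and bam was not tested.

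The nearest annotated genes were read in the same arrays. On chromosome arm 3L its neighbours CG7366 and CG8006 were at the floor, with highest values of 2.13 and 2.11. CG8012 rose by 1.15 in yw/w1118 DR and by 1.18 in Canton-S DR at day 10, where tut was lower. CG13679 ranged from 2.41 to 6.88 and fell by 3.31 with DN-Dmp53 at day 10, with uncalled values of -0.53 in yw/w1118 DR and 0.83 with dSir2. Its probeset is of a kind that can cross-hybridize.

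On chromosome arm 3R the gene CG11854, which overlaps bam in the annotation, was at or close to the floor (2.11 to 2.18). The neighbouring Jhbp7, named for a juvenile hormone binding protein, rose by 1.26 in yw/w1118 DR and by 2.35 in Canton-S DR. The neighbours to (takeout) and RpS27 were not analysed here. On chromosome arm 2R bgcn overlaps Pym, a partner of exon junction complex proteins, which was at 10.00 to 11.51 and fell by 0.78 in Canton-S DR at day 10. The neighbours of bgcn are gbb, described above, and TBPH and Cpes, which stayed between 8.57 and 9.25 and between 10.71 and 11.40 without a call between groups.

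Among 4722 genes whose group means ranged over at least 1, those most like tut over the 14 groups were PIG-A, which acts in GPI anchor synthesis (r = 0.88), Dph1 of diphthamide synthesis (r = 0.87) and Rgl, a Ral exchange factor gene (r = 0.85). Their own group means ran over narrower ranges, 7.89 to 9.26 for PIG-A. Those most like bam were Corp, a negative regulator of p53 (r = 0.94), the Toll family receptor gene Tollo (r = 0.94) and CG4022 (r = 0.93). Corp ran from 7.41 to 9.74 over the groups. The highest of so many correlations over 14 points is a description, and the groups share backgrounds and control arrays.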

How the data were processed

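No change was made to the deposited log2 values, which the authors obtained with GCRMA and quantile normalization; the sources used here name no GCRMA version. Of 18952 probesets 183 controls were left out, and of the other 18769 the probe table names 1 gene for 13647 (13544 matched to RefSeq), several for 402 and lists no entry for 4720.

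Every comparison had a limma fit of its own arrays (version 3.58.1 in R 4.3.3), after removing probesets at or below the 25th percentile of every group mean, which equals the floor of 2.11. P-values are two-sided with Benjamini-Hochberg adjustment over all probesets tested, and calls need an adjusted p below 0.05 and more than a 1.5-fold change. The fit was tested on simulated data. tut has no test wherever the dSir2 control, dSir2 overexpression or yw/w1118 DR arrays of day 10 enter. The methods' t-test used an unadjusted p under 0.01. The 3 genes, the lists and the tests were chosen with earlier results of these data known.

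Named are the members, their 2 nearest annotated genes on each side and genes that overlap them, up to 4 called genes of each list with the largest change in a day 10 DR or dSir2 comparison, and the 3 genes most like tut or bam. Genes named to describe an array (Yp1, Cp36, Acp53Ea, betaTub85D) are outside this rule and were chosen after their values were seen. A gene with several probesets is read from the one with the highest mean, and list genes with no probeset naming them alone were not used here.

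Replicate numbers pair the arrays of the DN-Dmp53 comparisons (deviations from group means correlate at 0.61, 0.42 and 0.76 at day 10 and at 0.30, 0.28 and 0.20 at day 40) and those of the DN-Dmp53 and dSir2 controls at day 40 (0.51, 0.25 and 0.15). Alternatives were other filters, all groups fitted at once, the replicate number as a block, array weights, other scalings, other tests, and leaving out each array or, chosen after seeing the data, the 5 arrays with a summed male list level over 500. Python 3.11.15 with pandas 2.3.3 served for the tables, and matplotlib 3.10.9 for plotting.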

Additional observations from a re-analysis of the deposited data

How the results depend on the processing

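The number of members called moved with the setting. Of the intervention comparisons 2 were called, against 1 with no filter on low values, 4 with the 50th percentile filter, 5 with all groups in 1 fit, 1 with the replicate block, 5 with array weights, 1 with quantile normalization again, 4 with arrays centred on their median, 1 by the methods' t-test, before and after Benjamini-Hochberg adjustment, and 0 to 4 without any 1 array. Of the ageing comparisons 3 were called, against 5 without the fold threshold, 1 with no filter, 5 with all groups in 1 fit, 0 with the replicate block, 5 with array weights, 6 with centred arrays and 1 by the adjusted t-test. Of the control comparisons 1 was called, against 3 with the 50th percentile filter, all groups in 1 fit or centred arrays, 2 with array weights or the t-test, 1 to 2 without any 1 array and 0 without the 5 arrays with male transcripts. Of the interaction tests 0 were called, and 1 without those 5 arrays. Where the numbers pair the arrays (DN-Dmp53 and the day 40 controls) the block changed no call of a member, and elsewhere the arrays share only a number; tut in Canton-S DR at day 10 had an adjusted p of 0.142 with it. Centring moved the median of all probesets by -0.16 to -0.31 in the 4 DR comparisons.

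Signs turned for these uncalled values: bam with DN-Dmp53 at day 40 (-0.032 with array weights, -0.048 with quantile normalization again, -0.046 with centring, -0.178 to 0.138 without 1 array), bam between DN-Dmp53 and dSir2 controls (-0.42 to 0.005 at day 10 and -0.201 to 0.114 at day 40 without 1 array), bam in the diet by background test at day 10 (-0.038 to 0.428 without 1 array) and in the diet by age test in yw/w1118 (-0.019 with quantile normalization again, -0.238 to 0.387 without 1 array), tut in the diet by background test at day 40 (-0.377 to 0.046 without 1 array, 0.228 without the male arrays) and tut in the diet by age test in Canton-S (-0.241 with array weights, -0.203 to 0.218 without 1 array). The cause was not tested. With 3 arrays a group and a floor at 2.11, a fall of bgcn was not detectable. In the DN-Dmp53 set tut lay close to the floor, and its differences over all arrays were under the fold threshold. Among them were -0.28 with age in the control (limma adjusted p = 0.0242) and -0.30 with DN-Dmp53 at day 10 (limma adjusted p = 0.0760).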
